A study of Homo sapiens with 3 samples.

Results

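MYC occupancy at the promoters of 10 nucleotide synthesis enzyme genes was examined in the peak lists of a chromatin immunoprecipitation sequencing (ChIP-seq) study of P493 cells. The genes were CAD, PPAT, PAICS, IMPDH1, IMPDH2, GART, UMPS, CTPS1, PRPS2 and TYMS. They were chosen by name as enzymes of purine and pyrimidine synthesis and not by a cutoff on their ChIP-seq values, but with earlier results of these data known. PPAT and PAICS share a start site, which leaves 9 start sites. A MYC region belonged to a gene when its summit, the base of highest signal, lay within 5 kb of the gene's start site in hg19. This gave 11 of the 31378 regions listed for untreated cells and 12 of the 27614 regions listed after MST-312.

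P493 is a human B cell line in which MYC is expressed from a repressible construct. The labels do not say in which state that construct was held. MST-312 is a small-molecule telomerase inhibitor, for which the labels name neither dose nor duration. MYC was precipitated with the N262 antibody (sc-764) from untreated P493 cells and from P493 cells given MST-312, and chromatin of untreated cells without precipitation served as the input. Each of the 3 samples is 1 library, so differences between conditions come without replicates and without p-values. The untreated library kept 60805153 tags after duplicates were limited, and the MST-312 library kept 55400354, 8.89% fewer. Its share of redundant tags was also higher, at 0.49 against 0.24. The part of this difference in the values below was not tested.

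Proliferating cells make nucleotides by de novo pathways that build the purine ring on phosphoribosyl pyrophosphate and attach a finished pyrimidine ring to the same sugar donor. PRPS2 makes that donor, PPAT commits it to purine synthesis, and GART and PAICS carry out later steps of the purine ring. IMPDH1 and IMPDH2 turn inosine monophosphate towards guanine nucleotides. CAD opens the pyrimidine pathway, UMPS closes it at uridine monophosphate, CTPS1 makes cytidine triphosphate and TYMS makes thymidylate. Many of these genes are textbook MYC targets. MYC binds DNA as a dimer with MAX, with a preference for the E-box, whose letters are CACGTG and which reads the same on both strands.

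The promoter sequences of the 3 start sites with the highest untreated MYC signal (PPAT and PAICS, CAD, CTPS1) and of UMPS are shown to compare their E-box content. UMPS had the lowest ratio of MST-312 to untreated signal when the highest region of each start site is taken. The region at the IMPDH1 start, which is not its highest, had a lower ratio. Each line holds the 250 bases before the RefSeq start in build GRCh38.p14, 5′ to 3′ on the gene's strand, with CACGTG in capitals where it occurs. The MYC regions are in hg19 and were not carried over to this build, so no base is placed relative to a summit.
PPAT, chr4:56435616-56435865, minus strand: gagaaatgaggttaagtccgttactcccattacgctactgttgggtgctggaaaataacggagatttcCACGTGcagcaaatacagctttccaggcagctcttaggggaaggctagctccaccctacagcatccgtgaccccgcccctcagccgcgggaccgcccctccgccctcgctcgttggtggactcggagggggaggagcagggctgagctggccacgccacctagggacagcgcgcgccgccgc
CAD, chr2:27217119-27217368, plus strand: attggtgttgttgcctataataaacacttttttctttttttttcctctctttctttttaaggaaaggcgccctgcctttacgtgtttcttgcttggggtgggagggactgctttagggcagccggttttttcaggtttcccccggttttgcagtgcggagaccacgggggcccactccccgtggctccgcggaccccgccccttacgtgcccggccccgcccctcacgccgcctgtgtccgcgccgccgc
CTPS1, chr1:40979446-40979695, plus strand: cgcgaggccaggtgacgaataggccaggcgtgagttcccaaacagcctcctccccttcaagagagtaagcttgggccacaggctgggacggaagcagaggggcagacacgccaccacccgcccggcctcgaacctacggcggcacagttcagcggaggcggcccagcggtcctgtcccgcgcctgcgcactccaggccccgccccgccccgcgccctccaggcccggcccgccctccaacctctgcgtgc
UMPS, chr3:124730202-124730451, plus strand: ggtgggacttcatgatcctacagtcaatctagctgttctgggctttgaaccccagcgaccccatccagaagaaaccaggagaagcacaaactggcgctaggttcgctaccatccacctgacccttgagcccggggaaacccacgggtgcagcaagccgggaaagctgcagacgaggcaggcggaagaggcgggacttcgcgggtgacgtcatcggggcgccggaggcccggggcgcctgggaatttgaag

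Of the 10 genes, 9 had promoter windows in the RefSeq table, 14 windows in all, each from 250 bases before to 50 bases after a start. CACGTG occurred in 2 of the 14, and both held the same E-box at chr4:56435792-56435797. It began 182 bases before the PPAT start and 40 bases after one of the PAICS starts, which lie 137 bases apart on opposite strands. Across all 34943 windows of this length in the table, 7.23% held CACGTG. The related letters CACGCG, searched on both strands after the first search was seen, occurred in none of the 14 windows and in 11.4% of all windows. The windows of the other 7 genes thus lack both strings of letters within these 300 bases. GC content was above the median of all windows (58.7%) in 12 of the 14, with 69.7% in the window of a further PAICS start and 72.7% in that of IMPDH1. The exceptions, at 43.0% and 35.3%, belonged to other starts of PAICS and CTPS1. The windows are not independent, since those of PPAT and PAICS overlap, as do those of neighbouring GART starts.

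Every one of the 9 start sites carried a listed MYC region in both libraries, as the map of regions around the start sites shows. The share of all start sites in hg19 with a listed region was not computed, so this count has no background of its own. All 11 untreated regions had a partner, a region of the other list with at least 1 base in common, and so had all 12 MST-312 regions. Over the whole lists, 53.6% of untreated and 63.3% of MST-312 regions had one. That share rises with strength in the list, and 8 of the 11 untreated regions at these genes were in the 2 strongest of 10 equal parts by −log10 q, the deposited measure of how far a region stands above the input, although the file headers say that q would be left out. In those parts 97.9% and 99.8% of all untreated regions had a partner. For those 8 regions, having a partner therefore sits close to the background for regions of their strength. The other untreated regions came from parts with 91.1% (PRPS2), 75.9% (TYMS) and 41.6% (a second IMPDH2 region). Of the 12 MST-312 regions, 7 were in the 2 strongest parts of their list, with 98.8% and 99.9%. The others came from parts with 88.3% (IMPDH1 start and PRPS2), 57.2% and 24.2% (TYMS) and 18.9% (second IMPDH2 region).

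**Figure D1:**
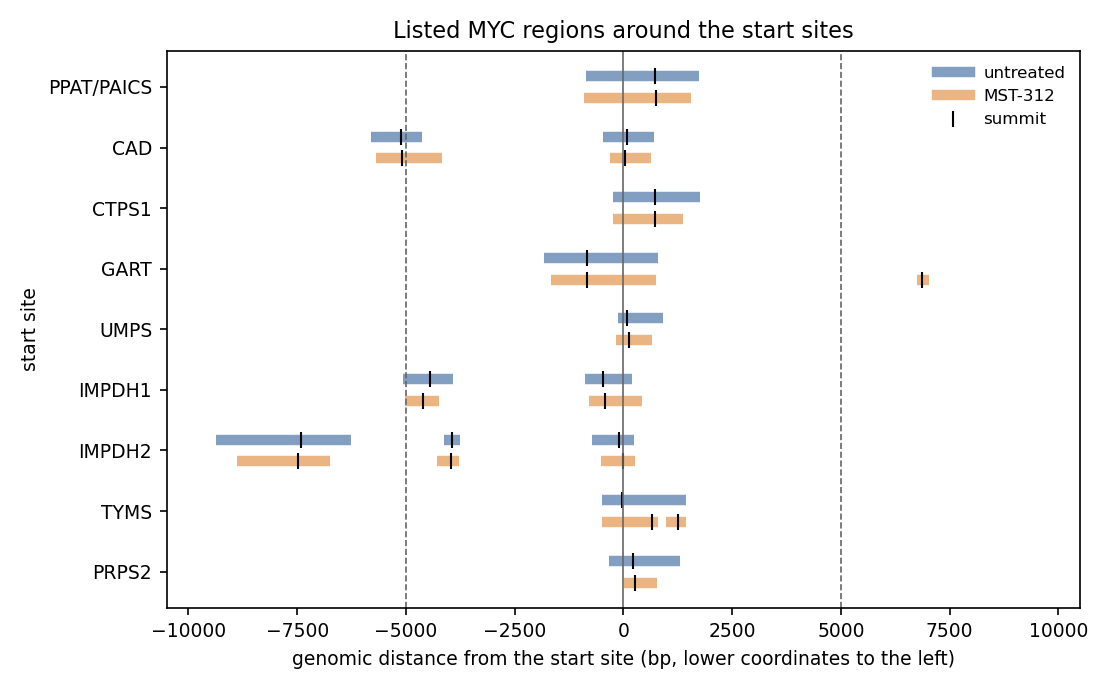
Listed MYC regions around the 9 start sites in untreated (blue) and MST-312 (orange) lists; the x axis is genomic distance from the start site in bp, bars are listed regions, ticks are summits and dashed lines mark 5 kb. Each start site has a region in both lists, and the single untreated TYMS region faces 2 MST-312 regions.

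The highest MYC signal among these genes was at the start site shared by PPAT, the amidotransferase that commits the pathway to purines, and PAICS, which joins carboxylase and ligase activities of the purine ring. The untreated region lay on chromosome 4 at 57300974 to 57303589 (2616 bp), with a pileup of 407 fragments at the summit and a −log10 q of 548.9. The pileup is the unscaled number of fragments, extended to 200 bp, that cover the summit. The MST-312 region (57300946 to 57303404, 2459 bp) had a pileup of 291 and a −log10 q of 361.4. By −log10 q these stood at percentiles 99.6 and 99.8 of their lists. Both summits were on the side of PAICS, 718 and 741 bp from the start site. Divided by kept tags, the MST-312 pileup was 0.785 times the untreated one, with an exact binomial 95% counting interval of 0.673 to 0.914. Such intervals cover counting error of fragments only, and not the spread between libraries, and fragments without molecular identifiers are not independent molecules.

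GART, whose product carries out several steps of purine ring assembly, had the ratio nearest to 1. Its untreated region on chromosome 21 (34913363 to 34915994, 2632 bp) had a pileup of 210, and its MST-312 region (34913541 to 34915946, 2406 bp) had 166. The tag-scaled ratio was 0.868 (0.703 to 1.07), so that the interval reaches above 1. The summits were 830 and 828 bp downstream of the GART start, 2 bp from each other. SON starts 146 bases away from GART on the opposite strand in RefSeq on GRCh38.p14, so the region cannot be given to GART alone.

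IMPDH1 and IMPDH2, the isozymes that start guanine nucleotide synthesis, each had a MYC region at the start and a second one about 4 kb away. At the IMPDH1 start (chromosome 7, 128049425 to 128050494 untreated, 128049519 to 128050738 after MST-312) untreated cells had a pileup of 114 and MST-312 cells one of 55. This was the lowest tag-scaled ratio among the regions with a single partner, 0.530 (0.377 to 0.737). The farther IMPDH1 region (128045234 to 128046391 and 128045275 to 128046063) had its summits 4454 and 4606 bp downstream of the start, with pileups of 168 and 118 and a ratio of 0.771 (0.604 to 0.981). The farther region was thus the higher of the pair in both libraries, and the intervals of the 2 ratios overlap.

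At the IMPDH2 start (chromosome 3, 49066153 to 49067114 and 49066354 to 49067149) the pileups were 165 and 104, a ratio of 0.692 (0.536 to 0.890). The second IMPDH2 region (49062738 to 49063118 and 49062588 to 49063100) had its summits 3950 and 3974 bp away towards lower coordinates and had the lowest −log10 q of those listed at these genes in either list. Its pileups were 65 and 48, with a ratio of 0.811 (0.546 to 1.20). Its MST-312 −log10 q of 13.14 lay just above the lowest listed value of 13.02. Its presence in the MST-312 list therefore rests on a narrow margin. In RefSeq on GRCh38.p14, NDUFAF3 and DALRD3 start on this side, 2204 and 2820 bases beyond the end of IMPDH2, so the region cannot be given to IMPDH2 alone.

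Among the pyrimidine genes, CAD, the enzyme of the opening steps, had the highest MYC signal. Its untreated region on chromosome 2 (27439782 to 27440953, 1172 bp) had a pileup of 329, and its MST-312 region (27439940 to 27440888, 949 bp) had 200. The tag-scaled ratio was 0.667 (0.557 to 0.798). The summits lay 73 and 33 bp downstream of the start. The local background, back-calculated from pileup and fold enrichment, was 14.5 fragments at the untreated CAD summit and 11.4 at the MST-312 one, against medians of 8.68 and 7.91 over all regions with a single partner. The fold enrichment of CAD (21.3 and 16.2) was accordingly below that of CTPS1 (36.3 and 25.2), although its pileup was higher.

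CTPS1, which makes cytidine triphosphate from uridine triphosphate, had pileups of 301 in the untreated region (chromosome 1, 41444760 to 41446776) and 188 in the MST-312 region (41444764 to 41446378). The ratio was 0.686 (0.568 to 0.825), and the summits, 731 and 735 bp downstream of the start, were 4 bp apart. UMPS, which turns orotate into uridine monophosphate, had pileups of 188 (chromosome 3, 124449089 to 124450114) and 96 (124449050 to 124449880). Its ratio of 0.560 (0.434 to 0.720) was the lowest when the highest region of each start site is taken. UMPS had the fifth highest untreated pileup of the 9 start sites and the seventh highest after MST-312. The ratios of CAD, CTPS1 and UMPS were all below those of PPAT and PAICS and of GART. The intervals of CAD, CTPS1 and UMPS each overlap that of GART. The region at the start of IMPDH1, also a purine gene, had a lower ratio than all of these, at 0.530. With 1 library per condition and ratios that differ within a pathway, no order of the pathways can be read from them.

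When the highest region of each start site is taken, the lowest MYC signals were at PRPS2, a phosphoribosyl pyrophosphate synthetase, and TYMS, the thymidylate synthase. PRPS2 had pileups of 85 (chromosome X, 12809132 to 12810767) and 58 (12809496 to 12810256), with a ratio of 0.749 (0.527 to 1.06) whose interval reaches above 1. At TYMS the untreated region on chromosome 18 (657112 to 659033, 1922 bp) had a pileup of 104 at a summit 27 bp from the start. After MST-312 this stretch was listed as 2 regions, at 657105 to 658402 with a pileup of 58 and at 658584 to 659038 with a pileup of 48. Among all untreated regions with a partner, 5.72% were split over 2 or more MST-312 regions.

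The higher TYMS region after MST-312 had its summit 655 bp downstream of the start, 682 bp from the untreated summit. The pileup of 58 was 0.612 times the untreated one per kept tag (0.436 to 0.852), but the 2 values come from different positions. The −log10 q at TYMS was 55.1 before and 19.8 and 14.4 after MST-312. With −log10 q of at least 26 required in both lists, TYMS was the start site without an MST-312 region, and 8 of 9 remained in that list. TYMSOS, a non-coding RNA gene on the opposite strand, starts 638 bases from TYMS in RefSeq on GRCh38.p14, so signal there cannot be given to TYMS alone.

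Ordered by the highest untreated pileup, the start sites were PPAT and PAICS (407), CAD (329), CTPS1 (301), GART (210), UMPS (188), IMPDH1 (168), IMPDH2 (165), TYMS (104) and PRPS2 (85). The IMPDH1 value is from its farther region. With the 114 of the region at its start, IMPDH1 would come between IMPDH2 and TYMS. The exact Poisson 95% intervals of neighbours in the order given above overlapped in 5 of 8 cases. They were apart between PPAT and PAICS (368 to 449) and CAD (294 to 367), between CTPS1 (268 to 337) and GART (183 to 240), and between IMPDH2 (141 to 192) and TYMS (85.0 to 126). The untreated pileup was above the list median of 62 fragments in all 11 regions, and the MST-312 pileup was above the median of 50 in 10 of 12.

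**Figure D2:**
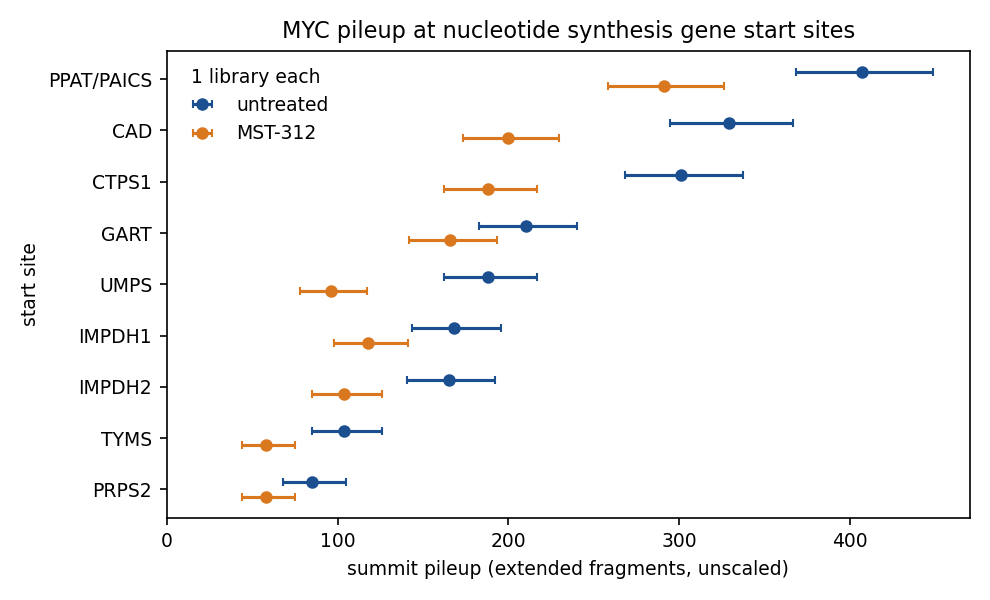
Summit pileup (extended fragments, unscaled) of the highest region within 5 kb of each start site in the untreated (blue) and MST-312 (orange) library; bars are exact Poisson 95% intervals, which cover counting error only. The MST-312 value is the lower one at all 9 start sites, from 291 against 407 at PPAT and PAICS to 58 against 85 at PRPS2. The IMPDH1 values are those of its farther region and not of the region at its start.

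Lower MYC signal after MST-312 at these genes was similar in size to that over both lists. In 10 cases the regions of the lists paired one to one (single pairs), and the tag-scaled pileup was lower after MST-312 in all 10. It was lower in 79.0% of the 15265 such pairs over both lists. The counting interval lay below 1 in 7 of the 10, against 46.4% of all pairs. Intervals narrow as pileup grows, and most of these regions are strong ones, so the counts are not at equal precision. The median ratio of the 10 was 0.720, with a range from 0.530 to 0.868, against 0.758 over all pairs (quartiles 0.620 and 0.954). Only the region at the IMPDH1 start and UMPS were lower by more than 1.5 times, which is 2 of 10, against 33.6% of all pairs. CAD, at 0.667, fell just short of this cut. Of the 10, only the region at the IMPDH1 start and UMPS had a counting interval below the median of all pairs, against 17.0% of all pairs. TYMS is not among the 10, since its untreated region met 2 MST-312 regions, but its ratio of 0.612 was also lower by more than 1.5 times.

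The ratio depends on signal strength over the whole lists, and the genes examined here lie mostly at the strong end. When all pairs were ranked by the mean of their 2 tag-scaled pileups, on a log scale, the median ratio was 1.00 in the weakest of 10 parts and 0.670 in the strongest. A weak site enters these pairs only when it passes the listing level in both libraries. CAD and CTPS1, in the strongest part, lay near its middle, with 48.8% and 54.1% of its pairs lower. PPAT and PAICS, with 78.4% of that part lower, and GART, with 90.2%, had higher ratios than most pairs of their strength. UMPS had 22.8% of its part lower, and the region at the IMPDH1 start had 13.2%. Of the 10 ratios, 5 were below the median of their part.

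**Figure D3:**
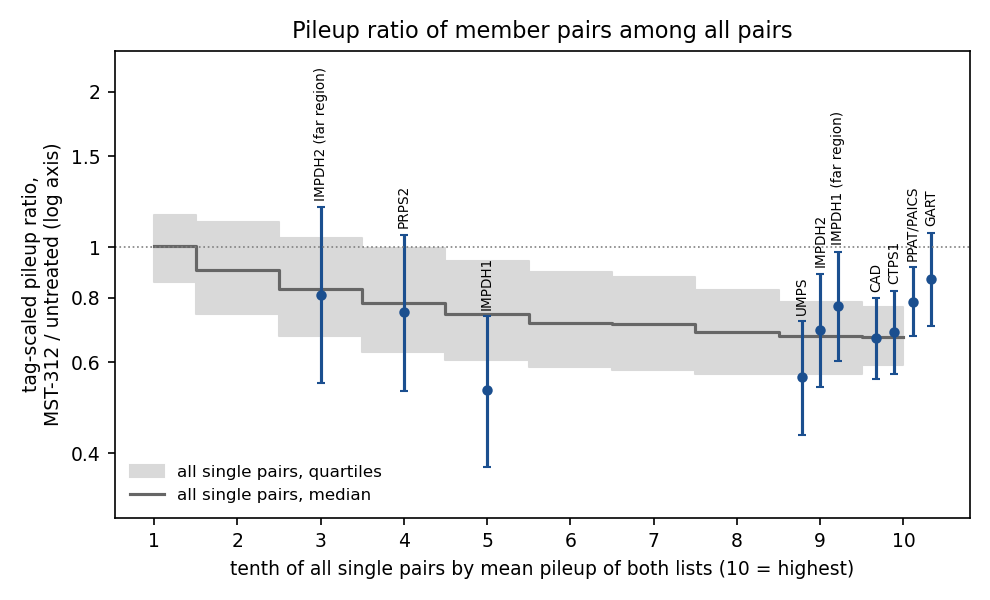
Tag-scaled pileup ratio of MST-312 to untreated (log axis) for the 10 single pairs at these genes (blue points, exact binomial 95% counting intervals), placed by strength among all single pairs, ranked by mean pileup and cut into 10 equal parts; the grey line and band are the median and quartiles of all pairs, and points of 1 part are spread sideways and named ("far region" marks summits about 4 kb from the start). The points lie from 0.530 at the IMPDH1 start to 0.868 at GART.

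Regions at these genes were also mostly narrower after MST-312. The width was smaller in 8 of the 10 single pairs, against 75.4% of all pairs, and the median width ratio was 0.819, against 0.832 over all pairs. PRPS2 differed most, with 1636 bp untreated and 761 bp after MST-312, and 7.45% of all pairs had a lower width ratio. The 2 wider regions after MST-312 were the one at the IMPDH1 start, with 1220 against 1070 bp, and the second IMPDH2 region, with 513 against 381 bp. The IMPDH1 start thus had the lowest pileup ratio and a wider listed region. Width follows from the calling threshold as well as from the extent of signal, and these were not separated.

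**Figure D4:**
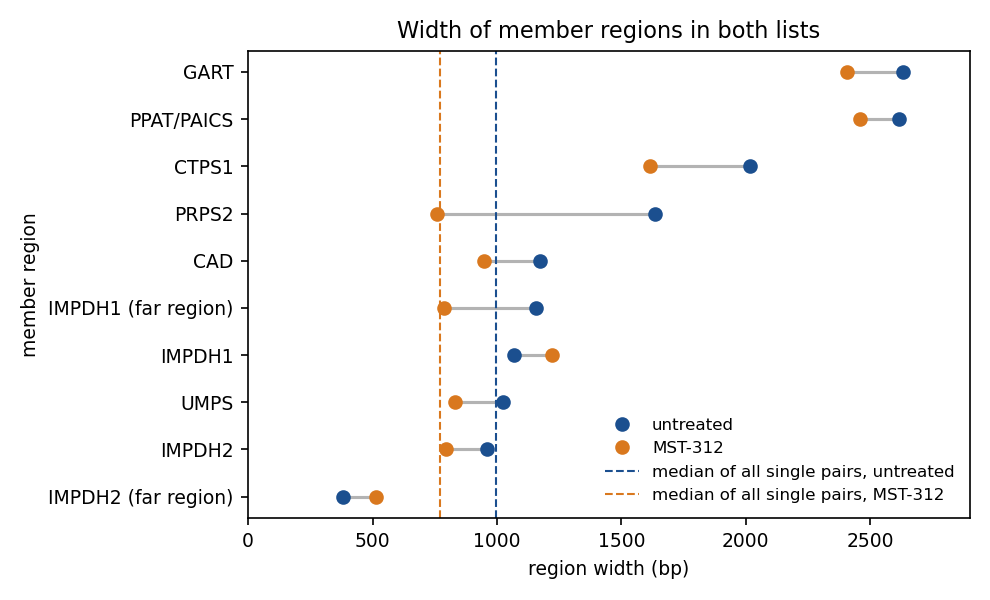
Width in bp of the 10 member regions with a single partner, in the untreated (blue) and MST-312 (orange) list; dashed lines are the medians of all 15265 single pairs, 998 and 773 bp. The MST-312 region is the wider one at the IMPDH1 start and at the second IMPDH2 region, and the narrower one elsewhere.

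The position of MYC signal was similar in both libraries at most of these genes. Summits lay within 100 bp of each other in 8 of the 10 single pairs, against 74.7% of all pairs, with a median of 40.5 bp against 46 bp. The exceptions among the 10 were the IMPDH2 start, at 102 bp, and the farther IMPDH1 region, at 152 bp. TYMS is not among the 10, and its MST-312 summits lay farther still from the untreated one, at 682 and 1280 bp. Summits at the starts of CAD, UMPS, TYMS in the untreated list and IMPDH2 were within 122 bp of the fixed start site. Those of PPAT and PAICS, CTPS1 and GART lay 718 to 830 bp from it. RefSeq on GRCh38.p14 gives further starts for PAICS, CTPS1 and GART, and distances to those were not computed. The summits at PAICS and GART may thus lie nearer to another start of the same gene. The windows of the CTPS1 starts, at 40979446 to 40979745 and 40988269 to 40988568, are farther apart than its summits are from the fixed start. The widest regions in both lists were those of GART, PPAT and PAICS and CTPS1, the ones with these more distant summits.

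The 5 kb limit leaves a few regions just outside. CAD had one at 27434443 to 27435637 in the untreated list, with its summit at 5114 bp and a pileup of 143, and its MST-312 partner had a pileup of 118 at 5082 bp. In RefSeq on GRCh38.p14, ATRAID and SLC5A6 start on that side, 5009 and 5101 bases from the CAD start. These distances are close to those of the summits, so the region cannot be given to CAD. IMPDH2 had a region with summits at 7406 and 7482 bp and pileups of 205 and 153, higher than at its own start, again on the side of NDUFAF3 and DALRD3. Upstream of GART an MST-312 region with a pileup of 44, 6867 bp from the start, had no untreated partner. The members just inside the limit were the farther IMPDH1 and IMPDH2 regions given above.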

How the data were processed

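Both MYC libraries and the input were single-read P493 libraries. Per the submitters' processing notes, CASAVA 1.8, Bowtie2 2.2.3 and hg19 were used. Per the file headers, peaks were called with MACS 2.0.10.20131216 in each library alone against the same input, with 200 bp fragments, a p-value cutoff of 0.05, at most 3 tags per position and local backgrounds of 1000 and 10000 bp. The lists hold no −log10 q below 13.01. The headers name no such filter, so an unlisted site may still be bound. The deposited pileup is an unscaled signal in fragments. Fold enrichment, as deposited, is a ratio of pileup to the input's local background, with values that fit 1 added to each. For the −log10 p and −log10 q columns, the deposited names omit the minus sign. The headers state that q was not to be calculated, but the column holds positive values, which were used as deposited to rank and filter.

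Start sites were fixed hg19 positions. Pileups were divided by kept tags. Partners shared at least 1 bp. All 10 genes are named; they and the lists were chosen with earlier results of these data known. Intervals are exact binomial (Clopper-Pearson, on the 2 pileups given their sum) or Poisson at 95%. No test between conditions was run. Other pathway genes were not analysed here, since no hg19 annotation was used. Promoter sequences are from RefSeq on GRCh38.p14; in that table IMPDH2 was not matched. The overlap code was tested on simulated data. Python 3.11.15, numpy 2.4.6, pandas 2.3.3, scipy 1.17.1 and matplotlib 3.10.9 were used. Alternatives covered the window, the −log10 q threshold, the partner rule, the measure of signal and the choice of region.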

Additional observations from a re-analysis of the deposited data

How the results depend on the processing

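No paired analysis was possible because each condition holds a single library, and for the same reason no replicate could be left out. Of 47 alternative values for the counts of start sites and regions, the covered length and the median ratio over the 9 start sites (0.692), 45 stayed within 1.5 times the reported count or length, or within the counting interval of the pooled pileups (0.668 to 0.770). The median ratio moved to 0.630 without division by kept tags and to 0.549 with pileup times width summed over each start site; the latter adds the narrower widths by construction. Of 54 alternative ratios of single start sites, all 54 were below 1 and 49 stayed within the counting interval of the reported ratio. Some of these values only repeat the reported ones. Taking the MST-312 region that overlaps the highest untreated region picked the same regions at all 9 start sites, and so gave the same median. Taking the region nearest to the start did so at every start site but IMPDH1. Other values could not move. Counts of start sites with a region could not fall with a window of 10 kb, or when any base within the window sufficed. Counts of regions with a partner could not fall when a gap of up to 1 kb was allowed. The repeats and these counts are among those that stayed and say nothing about stability. IMPDH1 changed from 0.771 to 0.530 when the region nearest to the start replaced the highest one. With pileup times width, the values outside their intervals were 0.540 at CAD, 0.556 at IMPDH1, 0.549 at CTPS1 and 0.348 at PRPS2. When −log10 q had to reach 26 in both lists, 8 start sites had a region in both, TYMS being the one lost. With summits within 100 bp as the partner rule, 8 of 11 untreated and 8 of 12 MST-312 regions had a partner. The counting intervals of PRPS2, GART and the second IMPDH2 region include 1.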
